A study of Mus musculus with 20 samples.

Results

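The heat shock proteins and DnaJ chaperones were followed in the cortex of APOE4 mice on a control or a ketogenic diet. They were taken by gene symbol, as the Hspa, Hspb, Hspd, Hspe, Hsph and Hsp90 genes, the numbered Dnaja, Dnajb and Dnajc genes, and Cct2 to Cct8 with their relatives. Of the 23413 gene symbols counted, 83 matched, and 74 of these were expressed, with at least 10 counts in at least 4 libraries. The statistical test took 72 of them among 15660 genes. The tested genes were 3 HSP90 genes, 14 HSP70 and HSP110 genes, 4 DnaJ A, 10 DnaJ B and 25 DnaJ C genes, 7 CCT subunits, 2 mitochondrial chaperonin genes and 5 small heat shock protein (HSP) genes. Another 2 genes, Hspbp1 and Hspbap1, match by spelling only and encode proteins that bind chaperones. Cct6b and Dnajb13 were just inside the rule, each with 10 counts or more in 4 libraries, but were too low for the test, and Dnajb7 was just outside with 3 libraries. The other symbols that were not expressed were Cct8l1, Dnajb8, Dnajc22, Dnajc5b, Dnajc5g, Hspb2, Hspb7 and Hspb9.

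Molecular chaperones bind proteins that are unfolded, newly made or damaged, and help them fold, travel or be degraded. HSP70 proteins bind and release clients in a cycle driven by ATP, in which DnaJ proteins deliver the client and start hydrolysis, and HSP110 proteins and other exchange factors release the nucleotide. HSP90 takes over later steps for kinases and receptors, the CCT ring folds actin and tubulin, and small HSPs hold unfolded clients without ATP. Some members are made at all times, and others are induced by the transcription factor HSF1 in the cytosol or by the unfolded protein response in the endoplasmic reticulum. In neurons, DnaJ proteins also serve the synaptic vesicle cycle.

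RNA was sequenced from the cortex of 20 mice at 22 months of age, 1 library per mouse, after 12 months of control diet (CD) or ketogenic diet (KD) begun when they were 10 months old. Of the females 5 received the CD and 4 the KD, and of the males 5 and 6. All mice, controls included, are APOE4 knock-in (APOE4KI) animals with the human allele in place of mouse Apoe, and under the study's methods were housed singly on equal calories, so that no group carries mouse Apoe or fed freely. The deposited values are counts of reads per gene, which summed to between 12207161 and 29109990 per library. Levels are given as CPM (counts scaled to the total of the library) within a gene, and as CPM per kb of exon where genes are compared.

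Several libraries stood apart before any chaperone was considered. Markers of striatal neurons (20 genes, all tested, none at 0, with Gnal the most abundant) summed to 4544, 4246 and 5167 CPM in KD females E61, E68 and E207, but to 847 CPM in KD female E227. In CD females they summed to 887, 1128, 2262, 750 and 927 CPM, with E249 the highest. In males they summed to between 765 and 1544 CPM on the CD, and on the KD to between 764 and 834 CPM except in E59, which had 6403 CPM. E59 also had 2187 CPM of Ttr, a choroid plexus gene, against at most 41.2 CPM in the other libraries. The dopamine receptor gene Drd1a followed the same libraries, with 276, 267 and 326 CPM in E61, E68 and E207, 133 CPM in E249, 299.5 CPM in E59 and at most 58.1 CPM elsewhere. Slc17a7, the vesicular glutamate transporter of cortical excitatory neurons, was at 149.7 to 607 CPM. The markers of these neurons (12 genes, all tested, none at 0, with Camk2a the most abundant) summed to 983 CPM in CD female E249 and to 1220, 1114 and 1215 CPM in KD females E61, E68 and E207, but to at least 1639 CPM in every other library. The females with the most striatal markers thus had the fewest cortical ones, while E59 had 2064 CPM of them. The 4 haemoglobin genes of the blood list were at 0 in all libraries. Xist was at 319 CPM or above in females and at most 7.59 CPM in males, and Ddx3y was at least 163.5 CPM in males. In females Ddx3y was at 1.64 CPM or less, apart from 14.0 CPM in E228 of the CD group. The transcript of mouse Apoe stayed between 1.33 and 3.34 CPM.

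Cytosolic HSP90 and the constitutive HSP70 were the most abundant chaperones per length. Hsp90ab1, the constitutive cytosolic HSP90, was at 402 ± 57.6 CPM per kb (SD, n = 20), Hsp90aa1, its inducible relative, at 364 ± 27.9, and Hspa8, the constitutive HSP70, at 355 ± 34.3. These 3 made up 36.9% of the summed level of all members, and their order is within their SD. Hsp90b1, the HSP90 of the endoplasmic reticulum, followed at 166 ± 17.6, below the first 3 by more than their SD. Next by exon length was Dnajc6, which encodes auxilin, the DnaJ protein that uncoats clathrin-coated vesicles in neurons, at 121.5 ± 14.4. By the longest transcript it was at 134.9, beside Hspa9 at 136.8. The next genes, mitochondrial Hspa9 (96.8 ± 9.44), Dnaja2 (96.05 ± 7.14), Hspa5 (93.1 ± 14.2) and Cct8 (91.2 ± 9.25), do not differ from each other beyond their SD. Hspa5 encodes BiP, the HSP70 of the endoplasmic reticulum, and Dnaja2 a cytosolic partner of HSP70.

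**Figure D1:**
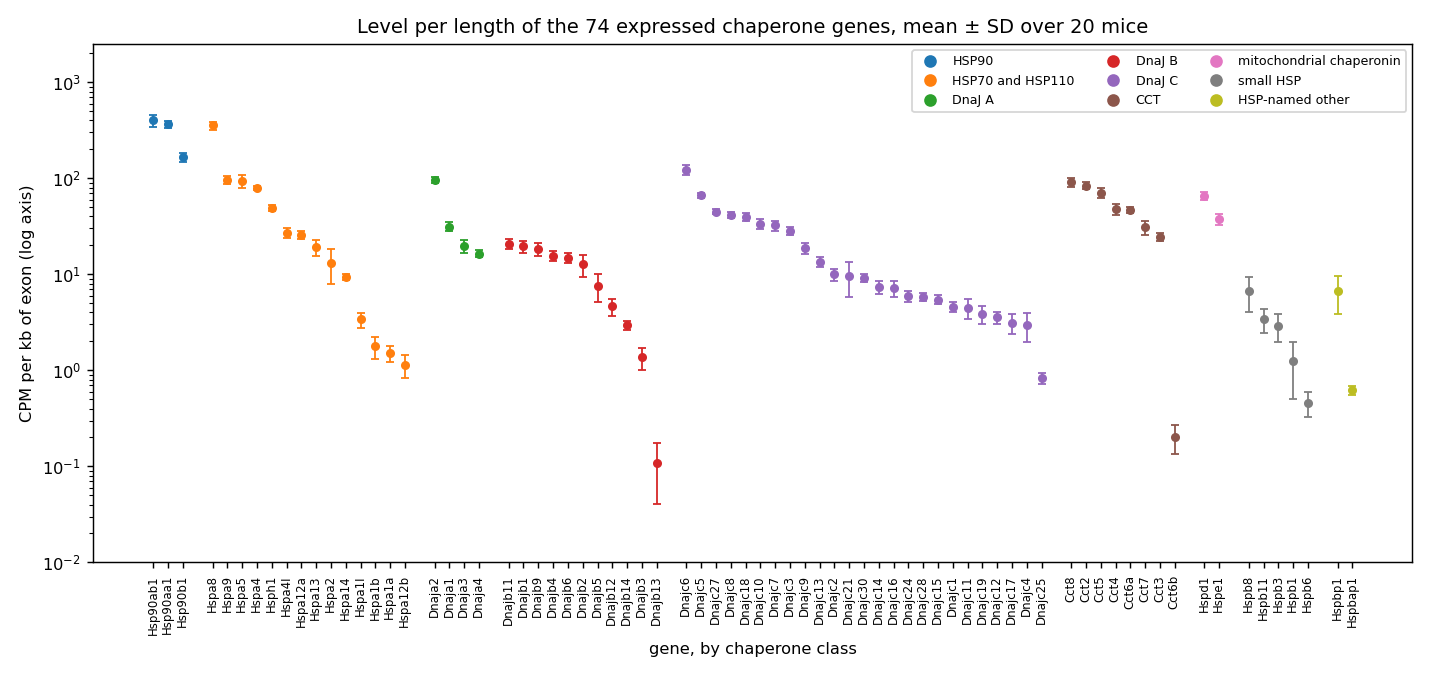
Level per length (CPM per kb of exon, log axis) of each expressed chaperone gene, as mean ± SD over 20 mice, ordered within each class. Hsp90ab1, Hsp90aa1 and Hspa8 are near 400 to 355, the inducible HSP70 genes Hspa1a and Hspa1b are below 2, and Dnajb13 is lowest at 0.107.

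Within the classes, levels fell steeply. HSP90 genes summed to 30.7% of all members, HSP70 and HSP110 genes to 25.6%, DnaJ C genes to 17.3% and CCT genes to 13.0%, while the small HSP genes summed to 0.483%. Hspa1a and Hspa1b, the stress-inducible HSP70 genes, were at 1.51 ± 0.286 and 1.77 ± 0.457 CPM per kb, at places 66 and 65 of 74. Hspb1, which encodes HSP27, was at 1.25 ± 0.742. Among DnaJ C genes, Dnajc5, which encodes the cysteine string protein of synaptic vesicles, was second to Dnajc6 at 66.4 ± 3.94, followed by Dnajc27 at 44.8 ± 2.9. With the length of the longest transcript in place of all exons, Dnajc7 (67.5) and Dnajc8 (57.8) came before Dnajc27 (48.6). The most abundant DnaJ B genes were Dnajb11 (20.7 ± 2.49), Dnajb1 (19.5 ± 2.74) and Dnajb9 (18.3 ± 2.73), which do not differ beyond their SD. That order too depends on the length used, since by the longest transcript Dnajb6 (30.9) and Dnajb4 (27.9) led, before Dnajb11 (26.6), Dnajb1 (20.8) and Dnajb9 (19.0). Dnajb11 and Dnajb9 act in the endoplasmic reticulum, and Dnajb1 is the main inducible DnaJ protein of the cytosol. Dnaja1 (31.3 ± 3.36) and mitochondrial Dnaja3 (19.6 ± 3.15) followed Dnaja2 in their class. Of the CCT subunits, Cct8 and Cct2 (83.8 ± 6.67) led, then Cct5 (70.9 ± 8.82). Of the mitochondrial chaperonin, Hspd1 (HSP60) was at 65.7 ± 6.09 and Hspe1 (HSP10) at 37.7 ± 4.87. Among small HSPs, Hspb8 (6.66 ± 2.6) was highest, followed by Hspb11 (3.38 ± 0.942) and Hspb3 (2.92 ± 0.932).

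Reads that fit 2 genes equally well limit these levels. Of all stretches of 50 bases in the annotated transcripts, 66.3% of those of Hspa1a and 62.3% of those of Hspa1b are shared with another gene, mostly with each other, and 71.4% of those of Hspa1l are shared with an annotated antisense gene. The share is 50.1% for Hspb1, 47.5% for Hsp90aa1, 42.1% for Hspd1 and 39.4% for Hspa8, mostly with pseudogenes, 42.7% for Dnaja4, with Wdr61 on the opposite strand, and 3.44% for Hsp90ab1 and 0 for Dnajc6. By the study's methods the libraries came from a stranded kit and HTSeq within STAR counted the reads. The strand setting and the handling of reads that fit several genes are not given in the sources used here, so that the values of the first 8 genes are uncertain.

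The class sums moved little between groups. HSP90 summed to 919 ± 35.6 CPM per kb in CD females (n = 5), 926 ± 70.9 in KD females (n = 4), 943 ± 45.8 in CD males (n = 5) and 938 ± 77.7 in KD males (n = 6). HSP70 and HSP110 summed to 765 ± 35.2, 792 ± 52.4, 769.9 ± 40.03 and 780.1 ± 48.5 in the same order, and DnaJ C to 523 ± 12.1, 521 ± 20.5, 534 ± 24.5 and 519.6 ± 17.0. These differences are smaller than the SD within a group. CCT summed to 386 ± 16.5 in CD females and 410.3 ± 27.0 in KD females, and the mitochondrial chaperonin to 102.6 ± 12.7 and 114.6 ± 10.3, each with overlapping mice. The small HSP genes summed to 13.9 ± 1.67 in CD females and 17.9 ± 3.61 in KD females, which overlapped through E227 (13.99). In males they summed to 13.1 ± 1.53 on the CD and 14.5 ± 3.74 on the KD.

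**Figure D2:**
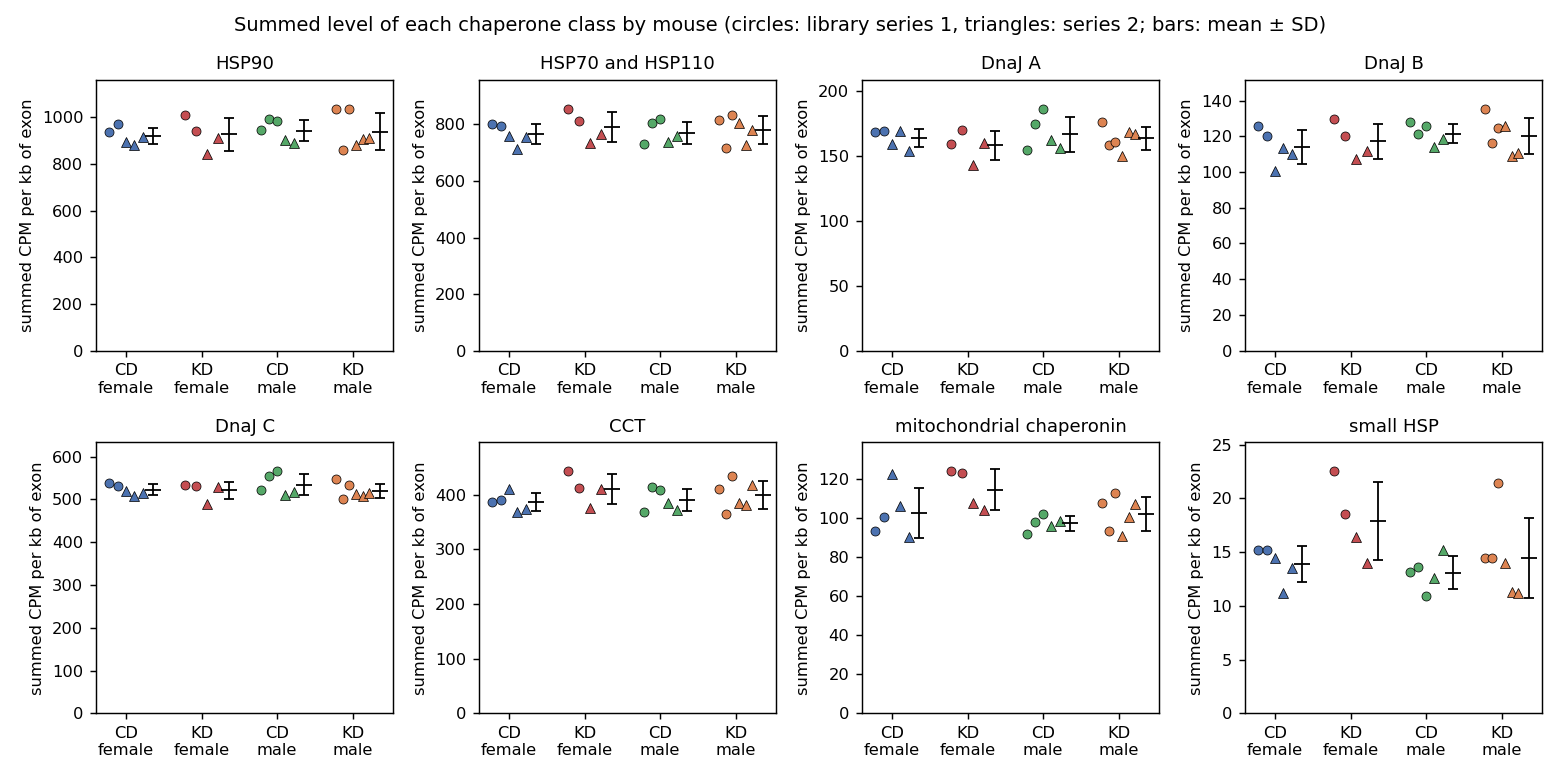
Summed level of each of 8 chaperone classes (CPM per kb of exon) in each mouse, by group, with circles for library series 1, triangles for series 2, and bars for mean ± SD. In every class the CD and KD mice of one sex overlap, and the small HSP class has its highest values in KD female E61 (22.5) and KD male E64 (21.5).

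Most members also varied less between mice than other genes. The SD of log2 CPM within groups had a median of 0.186 over the 72 tested members and 0.323 over the 15660 tested genes, and 57 members were below that second value. The members are also more abundant, with a median of 57.3 CPM against 18.0 CPM, and low counts raise the SD. The 6 members with the largest SD were Hspb1 (0.902), Hspbp1 (0.685), Hspb3 (0.545), Dnajc21 (0.518), Dnajc4 (0.517) and Dnajb5 (0.516). Hspb1 had from 2 counts in CD female E265 to 96 counts in KD male E64. Dnajb5 was lowest in CD females E249 and E265, at 20.7 and 25.1 CPM, against 30.04 CPM or more in all other libraries. The same 2 libraries had the lowest Hsp90ab1, at 900 and 908 CPM, against at least 1061 CPM in the others.

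The comparison of KD with CD females asked whether the diet moved chaperone transcripts in females. No member was called at the study's thresholds, a false discovery rate (FDR) of 0.1 and a 1.5-fold change, where 0.0447% of all tested genes were. The study, whose model used RUVg, reported many more differing genes at these thresholds in both sexes. Its gene lists were not compared with the members here. The largest fitted differences were lower Dnajc21, Hspa1b and Hspa1l and higher Hspb8 on the KD, all with adjusted p of 0.19 or above. At an unadjusted p under 0.05, 3 members were higher (5.86% of all tested genes were, against 4.17% of the members) and 5 were lower (5.5% of all genes, 6.94% of the members), so that both shares are near the background. The fitted log2 fold changes had a median of -0.02 over the members and 0.01 over all genes, with 32 members higher and 40 lower. For 60 of the 72 members, or 83.3%, the fitted change was under 0.2 on the log2 scale, against 61.2% of all genes. The likelihood ratio test of edgeR and the Wald test of DESeq2 each called 2 members (2.78%), Dnajc21 and Hspa1b, where they called 1.4% and 1.62% of all tested genes. All p-values, unless called exact, are from the quasi-likelihood test of edgeR and set a difference against the spread between these mice. Adjusted p were computed by Benjamini-Hochberg over all genes tested in a run, which were 15660 in the main one. In these pieces of tissue, a difference in the number of cells of a type and one in RNA per cell cannot be told apart.

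HSP90 and the abundant HSP70 genes were close to 0 in females. On the log2 scale, the fitted change was -0.01 ± 0.10 (SE) for Hsp90ab1, -0.10 ± 0.11 for Hsp90aa1, -0.05 ± 0.12 for Hsp90b1 and 0.003 ± 0.087 for Hspa8. Each turned direction between series 1 and series 2 alone. Hsp90b1 was at 0.22 and -0.31, Hsp90aa1 at 0.02 and -0.20, Hsp90ab1 at -0.12 and 0.08, and Hspa8 at -0.06 and 0.05. Mitochondrial Hspa9 was at -0.07 ± 0.11, with 0.16 in series 1 and -0.26 in series 2 alone. Hsph1, the inducible HSP110 that exchanges nucleotide on HSP70, was at -0.06 ± 0.08. Of the 14 HSP70 and HSP110 genes, 6 were higher and 8 lower, with a median of -0.06, and 2, Hspa1b and Hspa1l, were lower at an unadjusted p under 0.05, where 5.5% of all tested genes were. These are neighbours on chromosome 17.

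Hspa1b, one of the inducible HSP70 genes, was the member with the smallest p in females. It lies at chr17:34956436-34959238 on the minus strand (mm10). It was at 7.28, 6.12, 6.31, 5.96 and 4.80 CPM in CD females E62, E67, E249, E265 and E228, and at 3.77, 3.92, 3.09 and 3.83 CPM in KD females E61, E68, E207 and E227. Every KD female was below every CD female, which held for 0.402% of all tested genes and for no other member. Its fitted log2 fold change was -0.78 ± 0.20 (adjusted p = 0.19), from 42 to 153 counts per female. An exact two-sided permutation test of log2 CPM over the 126 splits of the 9 females gave p = 0.0159. It was -0.84 in library series 1 alone and -0.78 in series 2 alone. With the striatal score, the mean standardized level of the striatal markers, as a covariate, it was -0.52 (adjusted p = 0.922). Female scores were 1.59, 1.39 and 1.71 in KD mice E61, E68 and E207, -0.42 in E227, and at most 0.51 on the CD. The covariate therefore separates diet from striatal marker RNA poorly in females. That adjusted p is not particular to Hspa1b. Dnajc21 and Hspb8 had the same one, as had Cct3 (fitted 0.20), Dnajc12 (0.25), Hspa1l (-0.35) and Dnajc30 (-0.19).

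In males Hspa1b was not lower on the KD. CD males had 3.64, 4.12, 4.03, 3.58 and 6.09 CPM, and KD males had a lowest value of 3.39, a median of 5.88 and a highest of 6.45 CPM. The lowest KD male was E59, and the highest CD male was E264. In the fit this was a log2 fold change of 0.32 ± 0.17 (adjusted p = 1.0), with overlapping groups. The difference between the sexes, -1.10 ± 0.26 on the log2 scale, was the largest fitted interaction of any member, but its adjusted p was 1.0.

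Hspa1a, which encodes nearly the same protein, lies next to it at chr17:34969190-34972156. It was at 5.62, 3.40, 4.67, 4.92 and 4.86 CPM in CD females and at 3.46, 3.19, 4.12 and 4.61 CPM in KD females. Those values overlap, with CD female E67 among the KD females. On the log2 scale its fitted change was -0.33 ± 0.17 (adjusted p = 0.494), and in males -0.17 ± 0.15. The 2 genes were not tested against each other, and most of their sequence is shared. The promoters of both are shown because these are the inducible HSP70 genes and the sequences are nearly the same. They run from 250 bases before to 50 bases after the start (RefSeq, GRCm38.p6, minus strand), at chr17:34972107-34972406 for Hspa1a and chr17:34959189-34959488 for Hspa1b. Capitals mark a match to GAANNTTC, the core of the heat shock element bound by HSF1.
Hspa1a: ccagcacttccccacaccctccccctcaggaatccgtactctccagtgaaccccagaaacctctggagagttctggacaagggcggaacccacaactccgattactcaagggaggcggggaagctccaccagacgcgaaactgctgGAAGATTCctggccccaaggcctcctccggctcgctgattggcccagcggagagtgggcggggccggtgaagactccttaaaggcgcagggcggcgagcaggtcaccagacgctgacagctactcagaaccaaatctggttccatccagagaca
Hspa1b: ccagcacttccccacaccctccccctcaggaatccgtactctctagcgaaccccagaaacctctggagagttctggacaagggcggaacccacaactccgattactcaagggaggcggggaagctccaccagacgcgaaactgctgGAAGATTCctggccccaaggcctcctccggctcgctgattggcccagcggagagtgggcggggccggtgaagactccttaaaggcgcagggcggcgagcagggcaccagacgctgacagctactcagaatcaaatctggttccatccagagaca
Of the 300 bases, 296 are identical, and the differences from Hspa1a to Hspa1b are C44T, T47C, T249G and C276T, with positions counted from 1 at the 5′ end. The match starts at position 147 in both. GAANNTTC, which reads the same on both strands, is in 7.86% of 32851 promoters of this length and in 16 of the 81 promoters of 62 members. It is a match of letters, not a measured site.

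Hspa1l, a relative of the inducible HSP70 genes known for its expression in germ cells, starts 547 bases from Hspa1a on the opposite strand (chr17:34972703-34979285). It was at 9.37, 9.28, 7.29, 9.45 and 9.95 CPM in CD females and at 6.79, 5.13, 6.84 and 7.95 CPM in KD females. The groups overlapped only through CD female E249 and KD female E227. Hspa1l had a fitted log2 fold change of -0.50 ± 0.16 (adjusted p = 0.23; exact permutation p = 0.0238), with -0.69 in series 1 and -0.34 in series 2 alone. In males its fitted change was -0.20 ± 0.14, with -0.40 in series 1 and 0.08 in series 2 alone. Hspa12a, a distant member of the family, was at -0.20 ± 0.10 in females and 0.09 ± 0.09 in males, and its interaction (-0.29 ± 0.13) was the second with an unadjusted p under 0.05 (adjusted p = 1.0). That interaction was -0.43 in series 1 alone, -0.16 in series 2 alone and -0.18 with the striatal score as a covariate.

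Among the DnaJ genes, those at an unadjusted p under 0.05 in females were 1 higher and 3 lower, where 5.86% and 5.5% of all tested genes were. They are DnaJ C genes, the class of 25 of the 39 DnaJ genes tested. Dnajc21, which serves the maturation of the large ribosomal subunit, had the largest fitted difference of any member (chr15:10446756-10470516, minus strand). It was at 77.6, 53.3, 22.9, 67.2 and 55.9 CPM in CD females and at 25.2, 24.8, 21.2 and 38.7 CPM in KD females. All KD females were below 4 of the 5 CD females, and CD female E249 was among the KD females. For Dnajc21 the fitted log2 fold change was -1.07 ± 0.32 (adjusted p = 0.226), the exact test gave p = 0.0556, and the series alone gave -1.42 and -0.78. CD males had 64.8, 60.8, 70.7, 45.5 and 46.4 CPM, and KD males had a lowest value of 23.05, a median of 37.9 and a highest of 60.8 CPM, for a fitted change of -0.51 ± 0.28 (adjusted p = 1.0), with -0.82 in series 1 and -0.11 in series 2 alone. Low values in KD males were those of E64, E254 and E59.

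Dnajc21 moved with the striatal markers in females. The 4 females with the most striatal marker RNA, E61, E68, E207 and E249, had the 4 lowest values. In males, E59 was low with many striatal markers, while E64 and E254 were low with few (834 and 791 CPM of striatal markers). With the striatal score as a covariate, the fitted change in females was -0.53 (adjusted p = 0.922). The part of tissue composition in it was not tested beyond that covariate.

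**Figure D3:**
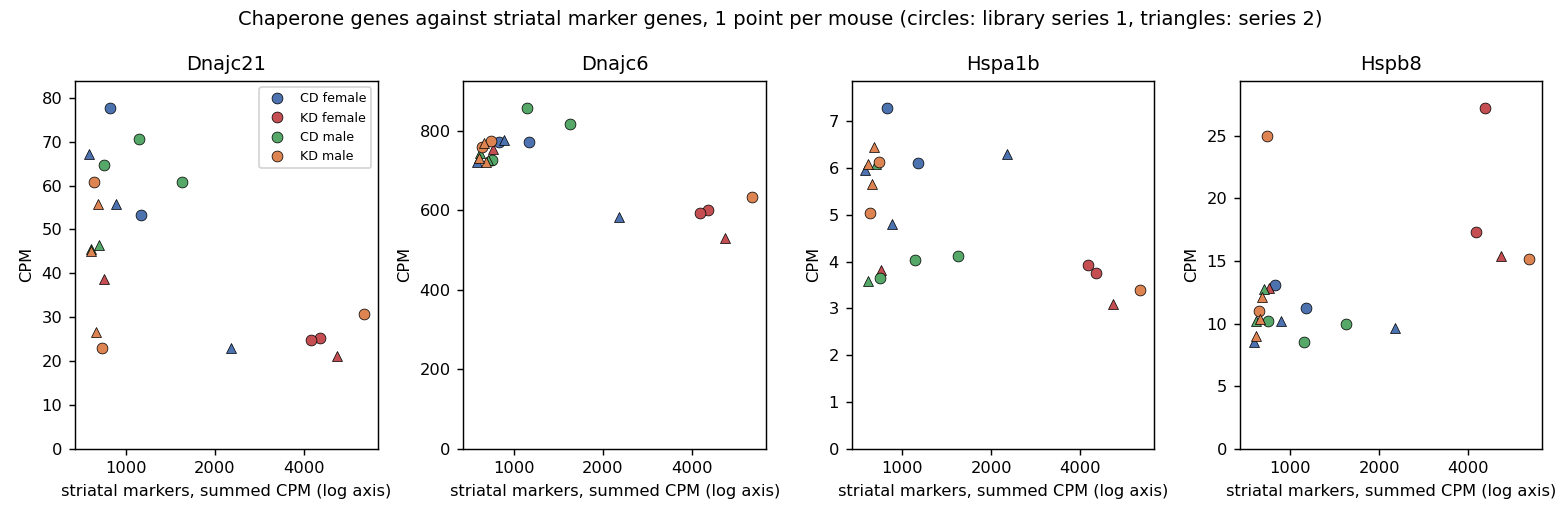
CPM of Dnajc21, Dnajc6, Hspa1b and Hspb8 in each mouse against the summed CPM of 20 striatal marker genes (log axis), with circles for library series 1 and triangles for series 2. The 5 libraries with over 2000 CPM of markers have the 5 lowest Dnajc6 values, and KD female E227, with few markers, has Hspa1b at 3.83 CPM, as low as the other KD females.

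Dnajc6, auxilin, was at 772, 770.4, 582, 722 and 776 CPM in CD females and at 601, 593, 529 and 755 CPM in KD females. CD female E249 lay among the KD females and KD female E227 among the CD females. Dnajc6 had a fitted log2 fold change of -0.29 ± 0.11 (adjusted p = 0.323), with an exact permutation p of 0.119. It was -0.41 in series 1 and -0.18 in series 2 alone, and -0.08 with the striatal score as a covariate. Males had -0.10 ± 0.10, with E59 the lowest KD male at 633.5 CPM.

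Dnajc12, a partner of the enzymes that hydroxylate aromatic amino acids, was higher in every KD female than in every CD female. It was at 15.7, 14.5, 15.8, 13.2 and 14.0 CPM in CD females and at 20.9, 23.05, 16.3 and 16.7 CPM in KD females. Such a gap, with KD higher, held for 1.7% of all tested genes and for 1 member. This is a fitted log2 fold change of 0.32 ± 0.11 (adjusted p = 0.26), and the exact test gave p = 0.00794, the smallest the design allows. It was 0.50 in series 1 alone, whose 2 KD females had the 2 highest values, and 0.13 in series 2 alone. In males the fitted change was 0.08 ± 0.10, with all groups overlapping.

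Other DnaJ genes were close together in the fit of both series. Of the 10 DnaJ B genes, 3 were higher and 7 lower in females, with fitted changes from -0.19 to 0.20 and none under an unadjusted p of 0.05, and Dnajb4 was the highest of them (0.20 ± 0.11). Dnajb1 was at -0.03 ± 0.12, Dnaja1 at -0.14 ± 0.13 and Dnajb11 at -0.06 ± 0.09. In series 1 and series 2 alone, Dnajb4 was at 0.40 and 0.01 and Dnajb11 at -0.09 and -0.04. The direction turned for Dnajb1 (-0.23 and 0.14), Dnaja1 (0.07 and -0.34) and Dnajb3 (1.03 and -0.48). Of the 4 DnaJ A genes 1 was higher, with no change above 0.2 in size. Of the 25 DnaJ C genes, 11 were higher and 14 lower, with a median of -0.02. Dnajc30, which acts in mitochondria, was at -0.26 ± 0.10 (adjusted p = 0.322, exact permutation p = 0.0794), with -0.15 in series 1 and -0.34 in series 2 alone. Of its stretches of 50 bases, 24.3% are shared with another gene, mostly with the neighbouring gene Bud23. Dnajc18 was at 0.14 ± 0.08.

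Hspb8, a small HSP that works with the co-chaperone Bag3 in the disposal of misfolded proteins by autophagy, had the largest positive difference in females (chr5:116408491-116422864, minus strand). It was at 13.1, 11.3, 9.67, 8.50 and 10.2 CPM in CD females and at 27.2, 17.3, 15.4 and 12.9 CPM in KD females. The groups overlapped only through CD female E62 and KD female E227. Hspb8 had a fitted log2 fold change of 0.67 ± 0.22 (adjusted p = 0.238) and an exact permutation p of 0.0159. It was 0.82 in series 1 and 0.51 in series 2 alone, and 0.59 with the striatal score as a covariate (adjusted p = 0.922). Muscle markers (6 genes, 5 tested, with Myh11 the most abundant) were also highest in E61 among females (37.7 CPM) and in E64 among males (44.5 CPM), the mice with the highest Hspb8. They summed to 30.3 CPM in CD female E249, the next among the females, and to 12.9 CPM in KD female E68, which was second in Hspb8. Markers of endothelium and mural cells (10 genes, all tested, none at 0, with Slco1a4 the most abundant) were highest in E61 (454.4 CPM), followed by E249 (425.6 CPM). The part of these cells in Hspb8 was not tested, and neither was that of cell types whose marker sums are not reported.

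In males, Hspb8 was at 10.2, 10.0, 8.51, 10.2 and 12.8 CPM on the CD, and on the KD had a lowest value of 9.0, a median of 11.5 and a highest of 25.0 CPM, in E64. The groups overlapped, with a fitted change of 0.38 ± 0.20 (adjusted p = 1.0). In males it was 0.78 in series 1 alone and -0.13 in series 2 alone, so that its direction turned. Bag3 itself was at 2.71, 3.04, 2.46, 1.99 and 2.77 CPM in CD females and 6.02, 4.57, 3.31 and 3.47 CPM in KD females, all KD above all CD, which held for 1.7% of all tested genes. Its fitted change was 0.67 ± 0.26 (adjusted p = 0.327). The Hspb8 promoter is shown with its GAANNTTC match in capitals, since Hspb8 was the member with the largest positive change (RefSeq, GRCm38.p6, chr5:116422815-116423114, minus strand).
Hspb8: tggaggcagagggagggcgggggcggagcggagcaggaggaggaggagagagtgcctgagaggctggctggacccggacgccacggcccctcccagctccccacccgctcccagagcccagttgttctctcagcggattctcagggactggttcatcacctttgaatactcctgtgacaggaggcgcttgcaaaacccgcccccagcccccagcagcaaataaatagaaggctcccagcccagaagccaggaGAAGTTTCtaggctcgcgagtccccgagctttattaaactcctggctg
The match starts at position 253, just after the start. The 14 members with such a match in a promoter were split evenly in KD against CD females, 7 higher and 7 lower, and their median was 0.02 on the log2 scale.

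The other small HSPs were low and variable. Hspb1 had fitted changes of 0.11 ± 0.54 in females and 0.34 ± 0.49 in males, each smaller than its SE. Hspb3 was at -0.34 ± 0.35 and -0.57 ± 0.31, with its lowest values in KD males E64 (0.648 CPM) and E254 (0.903 CPM).

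**Figure D4:**
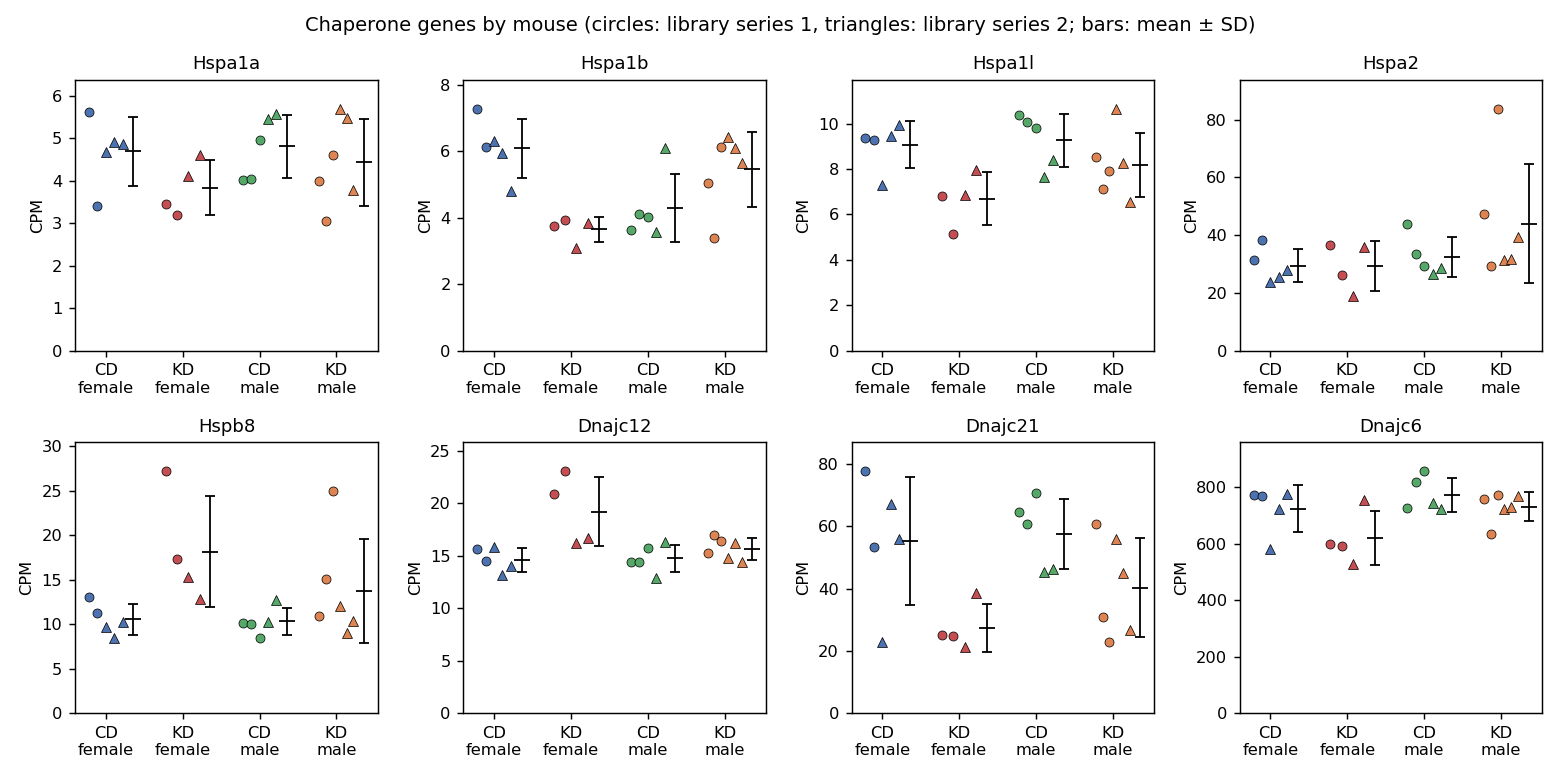
CPM of 8 chaperone genes in each mouse by group, with circles for library series 1, triangles for series 2, and bars for mean ± SD. KD females lie below all CD females for Hspa1b and above them for Dnajc12, and the highest Hspa2 value is that of KD male E64.

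Both chaperonin classes had small fitted differences. Of the 7 CCT subunits 5 were higher in KD females, with fitted changes from -0.03 to 0.20. Cct3 was the largest, at 158.6, 146.3, 137.1, 134.8 and 150.8 CPM in CD females and 203.7, 173.1, 156.8 and 171.9 CPM in KD females, overlapping only through E62 and E207. Cct3 had a fitted change of 0.20 ± 0.07 (adjusted p = 0.239, exact permutation p = 0.0238), with 0.26 in series 1 and 0.15 in series 2 alone, and 0.03 ± 0.06 in males. The mitochondrial pair, which share a bidirectional start on chromosome 1, was at 0.09 ± 0.10 for Hspd1 and 0.10 ± 0.12 for Hspe1 in females. Both turned direction between series 1 and series 2 alone, with 0.28 and -0.07 for Hspd1 and 0.35 and -0.10 for Hspe1.

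Most listed members of the 2 known stress programmes were near 0 as well. A list for the heat shock response held 11 members (Hspa1a, Hspa1b, Hspa8, Hsp90aa1, Hsp90ab1, Hsph1, Hspb1, Dnajb1, Dnaja1, Hspd1 and Hspe1). It includes Hspa8 and Hsp90ab1, called constitutive above. Of the 11, 4 were higher and 7 lower in females, with a median of -0.03 on the log2 scale. Of them 1, Hspa1b, was lower at an unadjusted p under 0.05, where 5.5% of all tested genes were lower and 5.86% higher. Hspb8 is not in that list. Of 5 members listed for the endoplasmic reticulum, Hspa5, Hsp90b1, Dnajb9, Dnajb11 and Dnajc3, 1 was higher and 4 lower, from -0.13 (Dnajb9) to 0.10 (Hspa5, with 0.30 in series 1 and -0.15 in series 2 alone). The direction also turned for Hsp90b1 (0.22 and -0.31), Dnajb9 (0.15 and -0.41) and Dnajc3 (0.15 and -0.17) in series 1 and series 2 alone. Dnajb11 was lower in both (-0.09 and -0.04). Other members of that compartment were not in the list, among them Hspa13 (0.17) and Dnajc10 (0.08). Hspa5, Hsp90b1 and Dnajc3 hold the endoplasmic reticulum stress element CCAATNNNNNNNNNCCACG, searched on both strands, in their promoters, which is in 0.119% of all promoters. Those 3 genes had fitted changes of 0.10 ± 0.14, -0.05 ± 0.12 and -0.02 ± 0.11 in females, and of 0.23 ± 0.13, 0.03 ± 0.11 and 0.02 ± 0.10 in males.

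Exact permutation tests were computed for the 9 results with an unadjusted p under 0.05 in 1 sex. These genes were taken for their small p, so that the permutation p-values are not independent of that choice. The splits also moved mice freely between the library series, which the fitted model holds as a term. Leaving out 1 of 3 libraries gave calls in females. Of these, E227 is the KD female with the fewest striatal markers (847 CPM) and E249 the CD female with the most (2262 CPM). Without E227 all KD females had 4246 CPM or more and all CD females 2262 CPM or less, so that there diet and striatal marker RNA cannot be told apart. Without KD female E227, Dnajc21, Hspa1b, Hspa1l and Hspb8 were called (adjusted p from 0.0375 to 0.0723, with 906 of all 15949 genes tested called, or 5.68%), and without CD female E249, Dnajc21, Hspa1b and Hspb8 were called (with 1046 of 15710 genes, or 6.66%, called). Without KD male E59, Hspa1b was called (with 38 of 15504 genes, or 0.245%, called).

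In males no member was called between the diets, and 0% of all tested genes were. At an unadjusted p under 0.05, 1 member was higher (2.37% of all genes) and 0 were lower (1.19% of all genes). No member had KD and CD males that did not overlap, which held for 0.102% of all genes with KD higher and 0.115% with KD lower. Fitted changes had a median of 0.00 over the members, 36 were higher and 36 lower, and for 87.5% the change was under 0.2, against 73.8% of all genes. DESeq2's Wald test and edgeR's likelihood ratio test also called 0 members in males.

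Hspa2, an HSP70 gene best known from spermatogenesis but expressed widely, was the member with the smallest p in males. It was at 43.9, 33.4, 29.2, 26.6 and 28.6 CPM in CD males, and KD males had a lowest value of 29.4, a median of 35.7 and a highest of 83.8 CPM. The highest was E64, and the next KD male had 47.4 CPM. Hspa2 had a fitted log2 fold change of 0.45 ± 0.20 (adjusted p = 1.0), and the exact permutation p over 462 splits was 0.238. It was 0.54 in series 1 and 0.32 in series 2 alone, and 0.22 without E64. KD male E64 was also highest in Hspb1 (3.46 CPM), Hspa12a (306 CPM) and Hspbp1 (26.3 CPM). Hspa5 was at 0.23 ± 0.13 in males, with 277 to 404 CPM on the CD and 345 to 452 CPM on the KD.

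**Figure D5:**
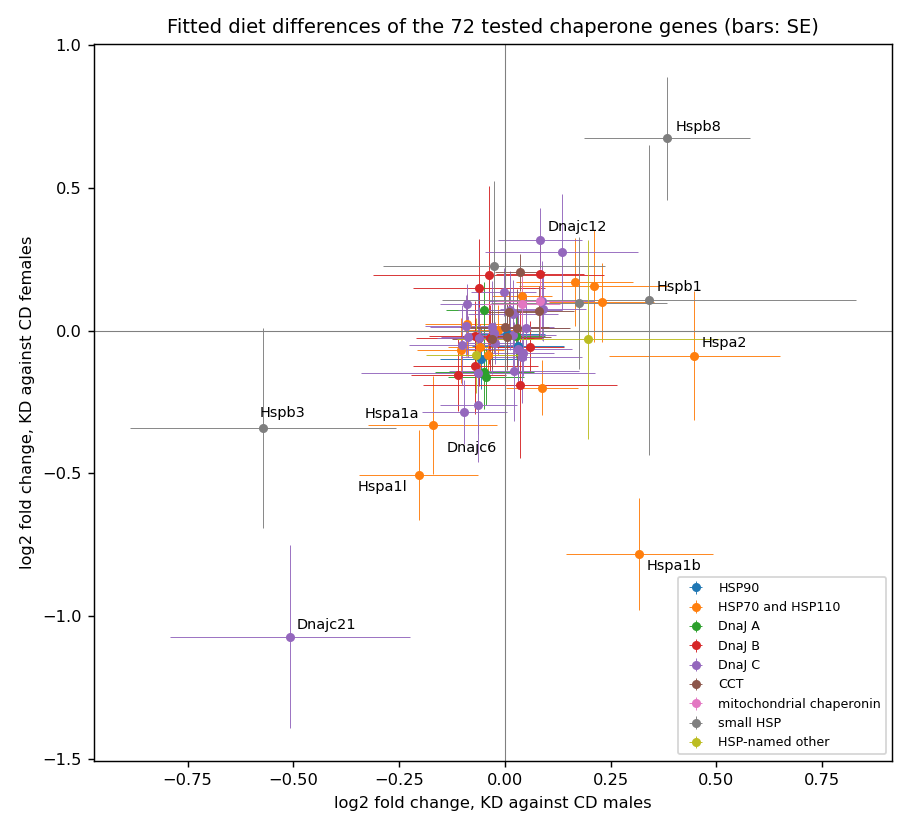
Fitted log2 fold change of KD against CD in females (vertical axis) and in males (horizontal axis) for the 72 tested chaperone genes, coloured by class, with bars for 1 SE. Most genes lie near 0 in both sexes, Dnajc21 and Hspb8 lie away from 0 in the same direction in both (in males of series 2 alone they are at -0.11 and -0.13), and Hspa1b is at -0.78 in females and 0.32 in males.

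The diet by sex interaction called no member and 0% of all tested genes, and the other 2 tests called no member and 0.00639% of all genes each. At an unadjusted p under 0.05 there were 2 members, Hspa1b and Hspa12a, against 2.14% of all genes (2.78% of the members). Averaged over the sexes, no member was called, where 0.268% of all genes were, while the likelihood ratio test and DESeq2 each called 1 (1.39%), Dnajc21, and 2.36% and 2.24% of all genes. There, 3 members were higher at an unadjusted p under 0.05 (7.41% of all genes) and 5 were lower (6.44% of all genes). The smallest adjusted p were those of Dnajc21 (-0.79 ± 0.21, adjusted p = 0.128), Hspb8 (0.53 ± 0.15, adjusted p = 0.13) and Hspa1l (-0.35 ± 0.11, adjusted p = 0.147). Hspa1a was at -0.25 ± 0.12 (adjusted p = 0.334). These values were smaller in series 2 alone, with Dnajc21 at -0.44, Hspb8 at 0.19, Hspa1l at -0.13 and Hspa1a at -0.18, against -1.12, 0.80, -0.55 and -0.34 in series 1 alone. With the striatal score as a covariate, Dnajc21 was at -0.48, Hspb8 at 0.48, Hspa1l at -0.27 and Hspa1a at -0.13.

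Females and males differed little in their chaperones. No member was called between the sexes by any of the 3 tests, where 0.134% of all tested genes were (1.83% by the likelihood ratio test and 1.35% by DESeq2), and at an unadjusted p under 0.05, 0 members were higher in females (8.59% of all genes) and 2 were lower (4.96% of all genes). These were Dnaja4, at -0.13 ± 0.05, and Dnajc6, at -0.18 ± 0.08, both with an adjusted p of 0.304. With the striatal score as a covariate, Dnajc6 was at -0.08 and Dnaja4 at -0.10. As given above, 42.7% of Dnaja4 is shared with Wdr61. The median over the members was 0.01. Dnaja4 was at 61.3, 57.6, 52.5, 46.7 and 59.4 CPM in CD females and 59.4, 63.4, 60.6, 58.9 and 59.7 CPM in CD males, with E265 the lowest and CD females E62 and E228 within the range of the CD males. Hspa2 was lower in females by a fitted -0.32 ± 0.15 and Hspe1 was higher by 0.16 ± 0.08 (adjusted p = 0.375 and 0.369).

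The libraries came in 2 series by their library numbers, each with mice of all groups, which also separate animals E51 to E68 from E207 to E265, so that libraries and sets of animals cannot be told apart. More chaperone genes passed the test between the series than in any comparison of diet or sex. At FDR 0.1, 23 of the 72 members differed between the series (31.9%), close to 33.2% of all genes. In series 2, 15 of them were lower, among them Hspbp1 (-0.55), Dnajb5 (-0.46), Dnajb2 (-0.43) and Hsp90ab1 (-0.22), and 8 were higher, among them Dnajc19 (0.42), Hspa1a (0.34), Dnajc13 (0.34) and Hspa4l (0.29). Series 2 libraries also had fewer counts, 12207161 to 17697342 against 21015275 to 29109990. The diet comparisons hold the series as a term.

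Other genes of the chaperone pathways were as close to 0. Hsf1, the gene of the heat shock transcription factor, was at -0.08 ± 0.20 in females and 0.02 ± 0.18 in males. Of 16 genes that regulate HSF1 or are its classic targets outside the members, 9 were higher and 7 lower in females, and Bag3 was the single gene at an unadjusted p under 0.05, where 5.86% of all tested genes were higher and 5.5% lower in females. Of 25 co-chaperones of HSP70 and HSP90, 13 were higher and 12 lower, and Sil1, an exchange factor for BiP, passed that p (0.34 ± 0.12, adjusted p = 0.273). Of 12 tested chaperonin partners, 7 were higher and 5 lower, with Pdcl3 at 0.29 ± 0.09 (adjusted p = 0.23). Of 24 genes of the endoplasmic reticulum and the unfolded protein response, 15 were higher and 9 lower. There P4hb (0.19 ± 0.08) and Derl1 (0.23 ± 0.10) were higher and Atf6, a sensor of the unfolded protein response, was lower (-0.54 ± 0.19) at an unadjusted p under 0.05, with adjusted p from 0.264 to 0.373. Of 11 mitochondrial chaperones and proteases, 7 were higher and 4 lower, none under that p. No gene of these lists was called in any comparison.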

How the data were processed

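STAR and the mm10 build are named in the submitters' processing notes. The authors deposited raw counts of reads per gene, made by HTSeq within STAR from a stranded kit. Versions, annotation and the strand setting are not given in the sources used here. Groups came from the labels, whose SD is the CD.

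From the counts, CPM and log2 CPM (prior count 2) were computed, and levels were divided by the exon length in GENCODE for GRCm38. edgeR 4.0.16 in R 4.3.3 was run on the 15660 genes that passed filterByExpr, with upper-quartile normalization, the 4 groups and the library series in one model, and the quasi-likelihood test with Benjamini-Hochberg adjustment. This took the series as a term in place of the study's RUVg, whose settings are not stated. DESeq2 1.42.0 was an alternative. The test was checked on simulated data. Named genes were the members of smallest p per contrast, the most abundant and most variable per class, and fixed stress genes. Members and lists were chosen with earlier results of these data known. Chi-square per degree of freedom was at least 6.93 in the 41 pairs of same-group mice and at least 3.66 in all 190 pairs, so that no pair agreed within sampling noise. The marker sums of some cell types are not reported here. Whether the mice shared litters is not stated.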

Additional observations from a re-analysis of the deposited data

Results flagged for a closer look

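In groups of 4 to 6 mice, a value was singled out where its gap to the nearest other mouse took an unusual share of the group's range by Dixon's test. In 84 groups of values (12 genes and 9 class sums in 4 groups of mice), 8 were singled out, where about 4.2 would be by chance. CD female E249 was low in Dnajc6, at 582 CPM against 722 CPM or more in the other CD females (share 0.721), and in Hspa1l, at 7.29 CPM against 9.28 CPM or more (0.75). KD male E59 was low in Dnajc6, at 633.5 CPM against 722 CPM or more (0.633). KD male E64 was high in Hspa2, at 83.8 CPM against at most 47.4 CPM (0.669), and in the small HSP sum, at 21.5 CPM per kb against at most 14.4 (0.685). CD male E264 was high in Hspa1b, at 6.09 CPM against at most 4.12 CPM (0.783), and CD male E58 in Cct3, at 170.1 CPM against at most 152.1 CPM (0.746). KD female E207 was low in the DnaJ C sum, at 490.2 CPM per kb against 528.2 or more (0.889).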

How the results depend on the processing

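None of the 12 members at an unadjusted p under 0.05 in some comparison changed the sign of that fitted difference under any alternative run. These members were taken for a small p in the same data, and most runs refit nearly the same mice. A kept sign was thus largely fixed in advance. Beside each count of members, the share of all genes tested that passed under the same setting is given. Called members in females were 0 in the main analysis (0.0447% of all genes), 1 with 2 RUVg factors (1.71%), 1 in library series 1 alone (5.42%), 2 with the likelihood ratio test (1.4%), 2 with DESeq2 (1.62%), 4 without E227 and E249 together (12.2%), and 0 to 4 when 1 mouse was left out (0% to 6.66%). For the diet averaged over the sexes they were 0 (0.268%), and 1 with 1 or 2 RUVg factors (1.01% and 2.25%), the likelihood ratio test (2.36%), DESeq2 (2.24%) or without both mice (7.83%), 2 in series 1 alone (5.55%), and 0 to 1 when 1 mouse was left out (0.0126% to 5.04%). For the interaction they were 0, and 1 without both mice (3.56%). In males and between the sexes they were 0 under every alternative run. Where calls appeared in all 20 mice, they were Dnajc21 and Hspa1b. At an unadjusted p under 0.05, females had 8 members (11.4% of all genes), 13 with 2 RUVg factors (17.8%) or in series 1 alone (17.4%), 2 in series 2 alone (2.7%), 3 with the striatal score as a covariate (5.08%), 15 without both mice (25.7%), and 6 to 13 leaving out 1 mouse (6.39% to 18.7%). Males had 1 (3.56%), 0 without the series term (3.08%) or in series 2 alone (0.311%), 2 with 1 RUVg factor (5.24%), with each sex fitted separately (4.5%) or without both mice (5.98%), 3 with 2 factors (7.29%), 4 in series 1 alone (6.08%), and 0 to 4 leaving out 1 mouse (1.51% to 5.06%). The interaction had 2 (2.14%), 5 with 1 RUVg factor (3.38%), 4 with 2 (5.01%), 1 with the striatal score (1.51%), 9 without both mice (13.4%), and 1 to 5 leaving out 1 (1.21% to 6.92%). The diet averaged over the sexes had 8 (13.9%), 0 in series 2 alone (1.29%), 5 with the striatal score (8.43%), 15 without both mice (25.7%), and 5 to 14 leaving out 1 (9.7% to 20.3%). Between the sexes there were 2 (13.6%), 4 with 1 RUVg factor (12.4%), in series 1 alone (11.5%) or without both mice (18.6%), 0 in series 2 alone (3.52%) or with the striatal score (3.8%), and 0 to 9 leaving out 1 (8.3% to 23.9%). The summed level of all members was 3036 CPM per kb by exon union and 3919 by the longest transcript. The cause of these shifts was not tested. No paired analysis was possible because the groups share no replicate numbers. Depth was low for members such as Hspb6 (at most 42 counts per library), Hspb1 (2 to 96) and Hspa1a (56 to 128). Their counting error was not separated from the spread between mice.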

Other observations

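Activity-induced genes, a list of 18 that includes Fos, Egr1 and Bdnf, had lower fitted values in females than in males for all 18. The median log2 difference was -0.50 over the list and 0.003 over all genes, and 7697 of all 15660 tested genes were lower in females. The list was chosen with earlier results of these data known. Such genes can move together within a mouse, so that the 18 are not independent results. Nr4a2 (-1.25 ± 0.34, adjusted p = 0.159), Bdnf (-0.53 ± 0.18), Egr3 (-0.61 ± 0.25), Fosb (-0.63 ± 0.27) and Egr1 (-0.55 ± 0.24) were lower at an unadjusted p under 0.05 in edgeR's quasi-likelihood test, 5 of the 18, where 4.96% of all tested genes were, and none was called. Markers of cortical excitatory neurons summed to 983 to 1220 CPM in females E249, E61, E68 and E207, the females with the most striatal markers, and to at least 1639 CPM in every male, and their part in this was not tested.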
